A study of Homo sapiens with 18 samples.

Results

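The genes described are the transcription factor NRF2 (gene NFE2L2), its inhibitor KEAP1, and 7 antioxidant genes known as NRF2 targets: NQO1, GCLC, GCLM, TXNRD1, SRXN1, SLC7A11 and HMOX1. They were taken by gene symbol from a whole transcriptome RNA-seq table of 38055 genes, where each of the 9 symbols was found, and all 9 were among the 20129 genes with enough reads to be tested. The cells were HCT116, an established human colorectal carcinoma line of epithelial type, wild type (WT), kept in McCoy's 5A medium with 10% fetal bovine serum. Cells were collected on day 3, at 50% confluency, and on day 5, at 250% confluency, where values above 100% mean that cells had grown past a full layer. There were 3 biological replicates, each with its own library of rRNA-depleted total RNA, on each day. The study asked what happens to RNA regulation when cells become overconfluent, and here days 3 and 5 were compared for the NRF2 genes. The day and the density changed together, so the time in culture and the cell density cannot be told apart.

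NRF2 is a transcription factor that switches on antioxidant and detoxifying genes. In unstressed cells KEAP1 binds NRF2 and, with the CUL3 ubiquitin ligase, sends it to the proteasome, and oxidants or electrophiles that modify KEAP1 let NRF2 accumulate. NRF2 then pairs with a small MAF protein on DNA sequences called antioxidant response elements (AREs), where BACH1 can take its place as a repressor. This control acts largely on the NRF2 protein, which RNA-seq does not measure.

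The letters at the centre of the ARE, TGACNNNGC, were searched on both strands of RefSeq promoter windows, which run from 250 bases before to 50 bases after a gene's start in the GRCh38.p14 assembly. Windows were found for 7 of the 9 genes, 10 windows in all, and HMOX1 and SLC7A11 were not searched. Those of KEAP1, GCLM and TXNRD1 held the letters. Among all 35116 windows, 13.3% held them. Matches are shown because they are the letters that NRF2 and BACH1 are known to read, with the match in capitals, 10 bases on each side, and each written 5′ to 3′ on the strand named. A further TXNRD1 match, which crosses the gene's start, is not shown.
GCLM (chr1:93909446-93909474, plus strand, opposite to the gene): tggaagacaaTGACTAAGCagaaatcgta
KEAP1 (chr19:10502784-10502812, plus strand, opposite to the gene): caggtcaccaTGACTAAGCagagccgggc
KEAP1 (chr19:10502807-10502835, minus strand, as the gene): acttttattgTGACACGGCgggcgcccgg
TXNRD1 (chr12:104215670-104215698, plus strand, as the gene): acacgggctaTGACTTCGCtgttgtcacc
TXNRD1 (chr12:104286920-104286948, minus strand, opposite to the gene): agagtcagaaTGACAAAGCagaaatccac
The GCLM and KEAP1 windows held the same 9 letters, TGACTAAGC, ending 26 and 23 bases before the RefSeq start of their window. Those starts differ from the GENCODE gene ends given with each gene below, and for KEAP1 the match lies inside the GENCODE gene. The letters TGATGNAA, the core of the element read by the amino acid response factor ATF4, were in none of the 10 windows of these 7 genes and in 3.62% of all windows. A match is a run of letters and was not tested for binding, and the windows do not reach distant enhancers.

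The libraries held 27470978 to 56689369 reads on genes. Values are normalized reads, meaning reads per gene divided by a size factor of the library. Of 13 listed markers of blood, endothelial, stromal, muscle and glial cells, 7 averaged under 10 normalized reads on both days, among them PTPRC, CD3E, CDH5 and DCN. Their summed level was 676 to 702 on day 3 and 1374 to 1466 on day 5, mostly COL1A1, a fibrillar collagen (mean 521 and 1129). Of the 5 tested, 4 were higher on day 5 (VWF, COL1A1, ACTA2 and DES) and 0 were lower. The epithelial keratins KRT8, KRT18 and KRT19 and the adhesion gene EPCAM were high on both days, while the intestinal markers differed: CDX2 averaged 226 on day 3 and 306 on day 5, KRT20 averaged 30.9 and 19.4, and VIL1 and CDX1 averaged under 3. Of 9 epithelial markers tested, 7 were higher on day 5 and 0 were lower. Beside both marker groups, 29.3% of all genes tested were higher and 27.6% were lower on day 5. The part of either marker group in the results was not tested. The libraries were made from whole cultures, so fewer cells of a type and less RNA per cell cannot be told apart.

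Of the 9 genes, 4 were lower on day 5 (NFE2L2, NQO1, TXNRD1 and SLC7A11), 2 were higher (KEAP1 and HMOX1), and 3 did not pass the test (GCLC, GCLM and SRXN1). The cystine transporter SLC7A11 fell most, by 58.2%, whereas the haem-degrading enzyme HMOX1 rose by 82.5%. The background was large. Among all genes tested, 56.9% passed the threshold, 29.3% as higher and 27.6% as lower on day 5, so 6 of 9 is close to the share of all genes. The same 6 genes had libraries that did not overlap between days, as had 65.0% of all genes tested. The median log2 fold change was -0.19 over the 9 genes and 0.01 over all genes tested.

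NFE2L2 (ENSG00000116044) lies on chromosome 2, from 177218667 to 177392756 on the minus strand. It had 4119, 4082 and 5058 normalized reads in the 3 day 3 libraries and 3162, 2996 and 3059 on day 5. All day 5 libraries were below all day 3 libraries, as in 31.7% of genes tested, and the day 3 group was spread by its replicate 3. The means were 4420 ± 553 on day 3 and 3072 ± 84.2 on day 5 (SD, n = 3). NFE2L2 RNA thus fell by 30.1% (log2 fold change -0.52, SE 0.11, adjusted p = 0.00777 by limma over all genes tested). Reads on its strand could also belong to a long noncoding RNA, ENSG00000213963, whose exons cover 13.6% of the NFE2L2 exon bases. That RNA was listed at 167 to 201 normalized reads, and how the counting treated shared reads was not tested. HNRNPA3, an abundant RNA-binding protein gene, overlaps 23.4% of the NFE2L2 exon bases on the opposite strand. It was listed at 20073 to 23423 normalized reads on day 3 and 17261 to 18679 on day 5. Per the methods the mapping kept the strands apart, and reads from the wrong strand were not tested for.

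KEAP1 (ENSG00000079999; chromosome 19, 10486125 to 10503558, minus strand) encodes the cysteine-rich sensor that holds NRF2. Its day 3 libraries had 1407, 1641 and 1949 normalized reads and its day 5 libraries had 2312, 2010 and 2277. The groups did not overlap, as in 33.4% of genes tested for this direction, but the highest day 3 library lay only just below the lowest day 5 library. The mean went from 1666 ± 272 to 2200 ± 165 (SD, n = 3), a log2 fold change of 0.41 with an SE of 0.14. The adjusted p from limma was 0.0463, just past the threshold. This call was lost in 9 of 15 alternative settings, including 5 of the 6 that left out a library, where the log2 fold change ranged from 0.30 to 0.53. KEAP1 transcripts were 60.8% G and C, and after a correction for GC content and length the log2 fold change was -0.12 (adjusted p = 0.387, limma).

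The ratio of KEAP1 to NFE2L2 within a library does not depend on how the libraries were scaled. It was 0.342, 0.402 and 0.385 on day 3 and 0.731, 0.671 and 0.744 on day 5. All day 5 ratios were higher, by 1.90-fold on average (log2 difference 0.93). The two-sided exact permutation test gave p = 0.1, the smallest that 3 libraries against 3 can give, and adjusted p = 0.1 over the 4 ratios compared. Since KEAP1 transcripts are richer in G and C than NFE2L2 transcripts (60.8% against 40.5%), the ratio was also taken from the GC and length corrected values described further on, where it was 1.26-fold (log2 difference 0.33).

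**Figure D1:**
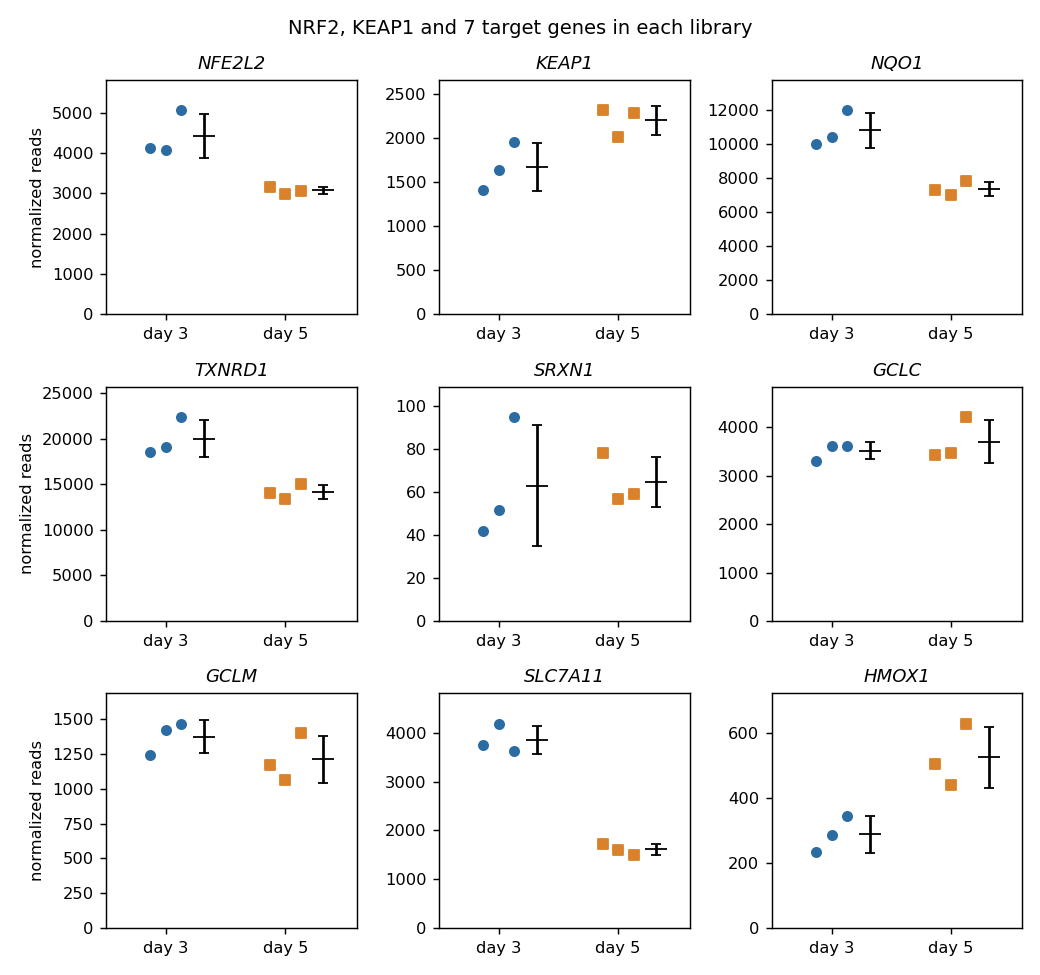
Normalized reads (linear vertical axis from 0, own scale for each gene) of the 9 NRF2 genes in the 3 day 3 libraries (50% confluency, circles) and the 3 day 5 libraries (250% confluency, squares), with the mean and SD of each day beside them. NFE2L2, NQO1, TXNRD1 and SLC7A11 were lower in every day 5 library, KEAP1 and HMOX1 were higher in every day 5 library, and the days overlapped for GCLC, GCLM and SRXN1.

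NQO1 and TXNRD1, enzymes that reduce quinones and thioredoxin, fell together with NFE2L2 and by nearly the same fraction. NQO1 (ENSG00000181019; chromosome 16, 69706996 to 69726668, minus strand) had 9998, 10411 and 11979 normalized reads on day 3 and 7292, 7020 and 7821 on day 5. TXNRD1 (ENSG00000198431; chromosome 12, 104215779 to 104350307, plus strand) had 18532, 19123 and 22344 on day 3 and 14085, 13375 and 14992 on day 5. Both genes were lower in each library of day 5 than in any of day 3, with replicate 3 highest on each day. NQO1 means were 10796 ± 1045 and 7378 ± 407 (SD, n = 3), and the gene fell by 31.5% (log2 fold change -0.55, SE 0.10, adjusted p = 0.00471, limma). TXNRD1 means were 20000 ± 2052 and 14151 ± 810 (SD, n = 3), and it fell by 29.1% (log2 fold change -0.50, SE 0.10, adjusted p = 0.00773, limma). A noncoding RNA opposite to NQO1, ENSG00000261602, was listed at 11.3 to 41.2 normalized reads. EID3, a gene nested in TXNRD1 on the same strand, shares none of its exon bases.

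SLC7A11 encodes xCT, the transporter that brings in cystine in exchange for glutamate and so supplies cysteine for glutathione. The gene (ENSG00000151012; chromosome 4, 138164097 to 138242349, minus strand) had 3748, 4187 and 3629 normalized reads on day 3 and 1725, 1603 and 1500 on day 5. The groups were far apart, with the lowest day 3 library above the highest day 5 library by more than the range of either day. The mean went from 3855 ± 294 to 1610 ± 113 (SD, n = 3), which was 2.39-fold lower on day 5 (log2 fold change -1.26, SE 0.10, adjusted p = 0.000273, limma). The antisense gene SLC7A11-AS1 was listed at 0 to 2.07.

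SLC3A2 encodes the heavy chain that carries xCT, and other light chains, to the cell surface. It had 3487, 3974 and 4396 normalized reads on day 3 and 4674, 4104 and 4078 on day 5. These groups overlapped, and SLC3A2 did not pass the test (log2 fold change 0.12, adjusted p = 0.410, limma). The ratio of SLC3A2 to SLC7A11 was 0.930, 0.949 and 1.21 on day 3 and 2.71, 2.56 and 2.72 on day 5. It was higher in every day 5 library, by 2.60-fold on average (exact permutation p = 0.1, adjusted p = 0.1 over the 4 ratios). The glutamine transporter SLC1A5, fixed in the list of glutathione supply genes, rose from a mean of 2896 to 5867 (log2 fold change 1.03, adjusted p = 0.00174, limma).

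GCLC and GCLM encode the catalytic and the modifier subunit of glutamate-cysteine ligase, the rate-limiting enzyme of glutathione synthesis. GCLC (ENSG00000001084; chromosome 6, 53497341 to 53616970, minus strand) had 3310, 3623 and 3604 normalized reads on day 3 and 3431, 3466 and 4209 on day 5. GCLM (ENSG00000023909; chromosome 1, 93885199 to 93909456, minus strand) had 1241, 1421 and 1467 on day 3 and 1170, 1065 and 1400 on day 5. The days overlapped for both genes, and replicate 3 of day 5 was the highest of its day in each. The means were 3512 ± 175 and 3702 ± 439 for GCLC and 1376 ± 120 and 1212 ± 171 for GCLM (SD, n = 3). Neither passed the limma test, with log2 fold changes of 0.07 (SE 0.11, adjusted p = 0.603) and -0.19 (SE 0.13, adjusted p = 0.259). The ratio of GCLM to GCLC was 0.375, 0.392 and 0.407 on day 3 and 0.341, 0.308 and 0.333 on day 5, so it was lower in every day 5 library (log2 difference -0.26, exact permutation p = 0.1, adjusted p = 0.1 over the 4 ratios).

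HMOX1 encodes haem oxygenase 1, which breaks haem into biliverdin, iron and carbon monoxide and is repressed by BACH1. The gene (ENSG00000100292; chromosome 22, 35380361 to 35394214, plus strand) had 233, 286 and 344 normalized reads on day 3 and 505, 441 and 628 on day 5. The lowest of the day 5 values was above the highest of day 3. Its values rested on 243 to 606 reads a library, the fewest among the 6 genes that passed. The mean rose from 288 ± 55.9 to 524 ± 94.9 (SD, n = 3), by 1.82-fold (log2 fold change 0.87, SE 0.19, adjusted p = 0.00993, limma).

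SRXN1 (ENSG00000271303; chromosome 20, 646615 to 653200, minus strand) encodes sulfiredoxin, which repairs overoxidized peroxiredoxins. It had only 48, 84 and 67 reads in the day 3 libraries and 72, 53 and 57 in the day 5 libraries, or 42.1, 51.9 and 95.0 and then 78.1, 56.8 and 59.0 normalized reads. The days overlapped, and the highest and the lowest library were both from day 3. The exact 95% Poisson intervals, which cover counting error only, were 31.1 to 55.9 for the lowest library and 73.6 to 121 for the highest. The log2 fold change was 0.11 with an SE of 0.31 (adjusted p = 0.785, limma). The intervals of the lowest and the highest library, both of day 3, did not overlap, so the spread between libraries was beyond counting error. Of the SRXN1 exon bases, 90.7% are also exons of a read-through gene on the same strand, ENSG00000270299, listed at 0 to 1.08, and how the counting treated shared reads was not tested.

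A pair of properties of the table bears on all 9 genes. First, fold changes across all genes moved with base composition and with transcript length. With the genes split into 4 classes of equal size by GC content, the median log2 fold change was -0.34 in the class poorest in G and C and 0.52 in the richest. SLC7A11 (35.4% GC), GCLM (37.3%) and NFE2L2 (40.5%) were in the poorest class, and NQO1 and GCLC (both 44.2%) and TXNRD1 (44.6%) in the next. SRXN1 (51.7%) was in the class after that, and HMOX1 (58.5%) and KEAP1 (60.8%) in the richest. Split likewise by the length of the longest transcript, the median was -0.34 in the shortest class and 0.24 in the longest. SLC7A11, NFE2L2 and GCLM were in the longest class and TXNRD1 and GCLC in the next. NQO1, KEAP1, SRXN1 and HMOX1 were in the class below that. After a correction for GC content and length, added after seeing the data, SLC7A11 was at -1.32, NFE2L2 at -0.45, NQO1 at -0.36, TXNRD1 at -0.48 and HMOX1 at 0.58, and each still passed the limma threshold. Second, the scaling matters for the genes with small differences. Of the genes HPRT1, SNRNP200 and ZMYM4, which the study used as internal controls, SNRNP200 rose by 1.24 on the log2 scale (adjusted p = 0.000461, limma). Scaling to all 3 moved the median of all genes tested to -0.36. It shifts every gene alike, so positions relative to the median hardly change by construction and test nothing. With it SLC7A11 was at -1.62, NFE2L2 at -0.88, KEAP1 at 0.046 and HMOX1 at 0.50, and KEAP1 no longer passed (adjusted p = 0.722, limma). Under that scaling the share of calls that were higher on day 5 was 27.2%, against 51.5% in the reported setting. Other processing moved this share less, up to 56.3% with library totals and below the reported share after the GC and length correction.

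**Figure D2:**
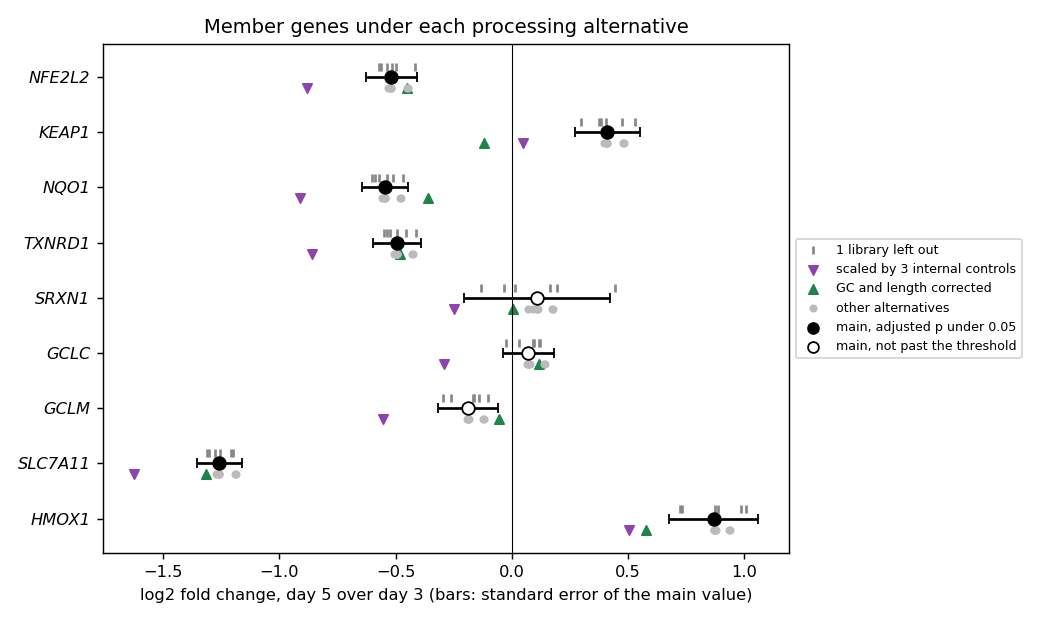
Log2 fold change, day 5 over day 3, of each of the 9 NRF2 genes (vertical axis) under the reported setting and 15 alternatives. Large circles with SE bars are the reported values, filled in black if past the threshold and open if not. Ticks (1 library left out), triangles (internal control scaling, GC and length correction) and small grey dots (other alternatives) look the same whether or not they passed. NFE2L2, NQO1, TXNRD1, SLC7A11 and HMOX1 passed in all 15 alternatives, KEAP1 in 6, GCLC and GCLM in 1 each and SRXN1 in 0.

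Levels of different genes were compared as normalized reads per kilobase of joined exons. On day 3, NQO1 (3634) and TXNRD1 (2981) stood far above the others, followed by KEAP1 (466), GCLC (408), SLC7A11 (400), NFE2L2 (295), GCLM (254), HMOX1 (125) and SRXN1 (24.9). On day 5 the first 4 places were the same, with NQO1 at 2483 and TXNRD1 at 2109 per kilobase. SLC7A11 went from place 5 to place 8, at 167 per kilobase, and HMOX1 from place 8 to place 5, at 227. Among neighbours, the libraries of KEAP1 and GCLC and of GCLC and SLC7A11 overlapped on day 3, as did those of HMOX1 and GCLM and of GCLM and NFE2L2 on day 5. The order depends on the length used: with the longest transcript in place of joined exons, TXNRD1 came first and 6 of the 9 genes took another place on day 3.

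Among 12714 genes compared over the 6 libraries, after centring each on its own mean, the 3 whose pattern was most like that of NFE2L2 were PLAAT3, PAXX and DGUOK, with root mean square differences of 0.0201, 0.0258 and 0.0264 on the log2 scale. Those most like NQO1 were MELK, SPECC1 and TXNRD1 (0.0251, 0.0251 and 0.0266). Such patterns were common, since 631 genes lay within 0.1 of NFE2L2 and 762 within 0.1 of NQO1. HMOX1 had fewer close neighbours: RGMA, PRRG2 and WFS1 were nearest (0.0870, 0.0998 and 0.101) and 2 genes lay within 0.1. The 6 libraries are 2 groups of 3, so genes with a like fold change have a like pattern.

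The small MAF genes MAFF, MAFG and MAFK, whose proteins pair with NRF2 and with BACH1, all rose, whereas BACH1 fell. MAFF had 185, 235 and 224 normalized reads on day 3 and 726, 767 and 871 on day 5 (log2 fold change 1.87, adjusted p = 0.000222, limma). MAFK had 270, 378 and 337 and then 883, 900 and 881 (log2 fold change 1.45, adjusted p = 0.000427, limma), and MAFG had 938, 1058 and 1137 and then 1807, 1588 and 1759 (log2 fold change 0.72, adjusted p = 0.00188, limma). For none of the 3 did the days overlap, as in 33.4% of genes tested for this direction, and MAFF rose most. The MAF transcripts were rich in G and C (57.3% to 63.4%), and after the GC and length correction MAFG no longer passed (0.13, adjusted p = 0.222, limma).

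BACH1, the repressor at AREs, had 2303, 2262 and 2572 normalized reads on day 3 and 1771, 1766 and 1815 on day 5 (log2 fold change -0.41, adjusted p = 0.00661, limma). It was lower in every day 5 library, as were 31.7% of genes tested. Its ratio to NFE2L2 was 0.559, 0.554 and 0.509 on day 3 and 0.560, 0.590 and 0.594 on day 5, which did not overlap but differed by only 1.08-fold (exact permutation p = 0.1, adjusted p = 0.1 over the 4 ratios). Its relative BACH2, a repressor best known from B cells, rose from 82.5, 96.4 and 68.0 to 420, 430 and 487 normalized reads (log2 fold change 2.43, adjusted p = 0.000188, limma).

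SQSTM1 encodes p62, an autophagy receptor that can draw KEAP1 away from NRF2 and is itself an NRF2 target. It had 4834, 5696 and 6826 normalized reads on day 3 and 9082, 8655 and 8552 on day 5 (log2 fold change 0.61, adjusted p = 0.0103, limma). Every day 5 library was higher, as in 33.4% of genes tested. SQSTM1 no longer passed after the GC and length correction (0.21, adjusted p = 0.130, limma). Nor did it pass with internal control genes as scaling (0.25, adjusted p = 0.0905, limma). CUL3, the scaffold of the ligase that KEAP1 serves, had 4957, 5148 and 5228 on day 3 and 5093, 5046 and 5382 on day 5, and these overlapped (log2 fold change 0.02, adjusted p = 0.854, limma). RBX1, the RING subunit of the same ligase, fell from a mean of 847 to 552 (log2 fold change -0.62, limma adjusted p = 0.00197). SYVN1, an endoplasmic reticulum ligase that can also target NRF2, rose from 742 to 2061 in the mean (log2 fold change 1.47, adjusted p = 0.000156, limma). Over the list of 18 NRF2 regulators and partners, which includes NFE2L2 and KEAP1, 11 were higher, 5 were lower and 2 did not pass. Thus 88.9% passed, beside 56.9% of all genes tested, and the median log2 fold change was 0.51. After the GC and length correction the median was 0.17, with 8 higher and 6 lower.

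**Figure D3:**
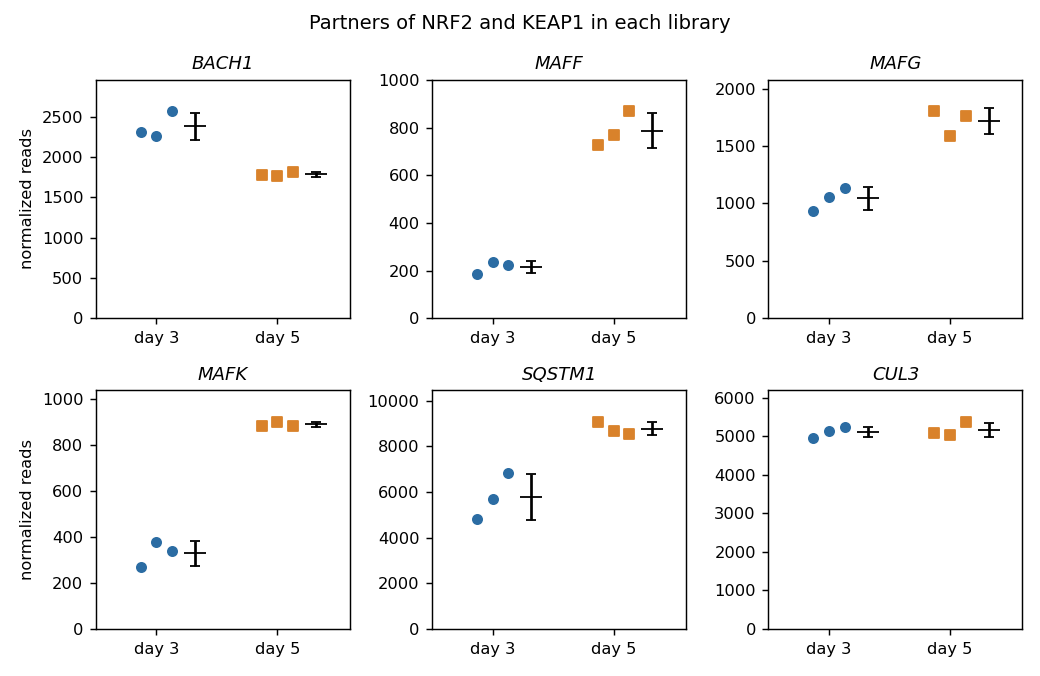
Normalized reads (linear vertical axis from 0, own scale for each gene) of 6 partners of NRF2 and KEAP1 in the 3 libraries of day 3 (circles) and of day 5 (squares), with the mean and SD of each day beside them. BACH1 was lower and MAFF, MAFG, MAFK and SQSTM1 were higher in every day 5 library, and the days overlapped for CUL3.

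Other genes of the antioxidant pathways were counted in lists by role. Among all genes tested, 56.9% passed, 29.3% as higher and 27.6% as lower, and the list counts stand beside these shares. The share that passed was 57.1% of glutathione genes, 63.0% of detoxification genes, 40% of haem and iron genes and 66.7% of NADPH supply genes. Of 14 glutathione genes tested, which include GCLC, GCLM and SLC7A11, 5 were higher, 3 were lower and 6 did not pass, with a median log2 fold change of 0.11. After the GC and length correction 3 were higher and 5 were lower, with a median of 0.03. CHAC2, which degrades glutathione, fell 3.95-fold, from 418, 395 and 488 normalized reads to 149, 86.8 and 99.4 (log2 fold change -1.98, adjusted p = 0.000654, limma). GGCT, which works in the same breakdown pathway, also fell (log2 fold change -0.74, adjusted p = 0.000654, limma). The extracellular glutathione-cleaving enzyme GGT1 rose (log2 fold change 0.94, adjusted p = 0.000732, limma), with 56.5% of its exon bases shared with another annotated gene on its strand. GSR, which regenerates reduced glutathione, was at 0.18 (adjusted p = 0.256, limma) and passed as higher with library totals (0.24) and without replicate 3 of day 3 (0.29).

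TXNRD1 and SRXN1 act in the thioredoxin and peroxiredoxin system. Of its 20 genes tested, themselves included, 10 were lower, 3 were higher and 7 did not pass, and the median log2 fold change was -0.31. Thus 65% passed, beside 56.9% of all genes tested. TXN, the thioredoxin that TXNRD1 reduces, had 15076, 14023 and 18033 normalized reads on day 3 and 6676, 6354 and 6927 on day 5. It fell 2.35-fold (log2 fold change -1.23, adjusted p = 0.000425, limma), a larger change than that of TXNRD1, although the difference between them was not tested. PRDX1, the main cytosolic peroxiredoxin, fell from 43218, 43325 and 51141 to 23864, 23778 and 26091 (log2 fold change -0.90, adjusted p = 0.000733, limma). The mitochondrial peroxiredoxin PRDX3 fell by 1.31 on the log2 scale (adjusted p = 0.000222, limma). PRDX2, another cytosolic peroxiredoxin, rose by 0.78 (adjusted p = 0.00400), as did the glutaredoxin GLRX by 0.61 (adjusted p = 0.00616) and the mitochondrial thioredoxin reductase TXNRD2 by 0.56 (adjusted p = 0.00736), all by limma. With internal control genes as scaling GLRX no longer passed (0.24, limma adjusted p = 0.0946), nor did TXNRD2, which was at -0.09 after the GC and length correction. TXNIP, the inhibitor of thioredoxin, was not analysed here.

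Genes that remove superoxide and peroxide were lower or did not pass: 4 of 7 tested were lower, 0 were higher, and the median was -0.52. The share that passed, 57.1%, was close to the 56.9% of all genes tested, of which 27.6% were lower. SOD2, one of the genes that were lower (log2 fold change -0.52), had no GC value and so left the list under the GC and length correction. Among the genes that remained, 4 were lower and 1 was higher after it, and the median was -0.96. The medians before and after the correction thus cover different genes. The cytosolic superoxide dismutase SOD1 fell from 14475, 13943 and 16728 to 6460, 6554 and 7072 normalized reads (log2 fold change -1.16, adjusted p = 0.000339, limma). GPX8, a glutathione peroxidase of the endoplasmic reticulum, fell 2.83-fold (log2 fold change -1.50, adjusted p = 0.000142, limma). GPX1 fell by 0.85 on the log2 scale (adjusted p = 0.00317, limma), with 39.9% of its exon bases shared with another annotated gene on its strand.

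**Figure D4:**
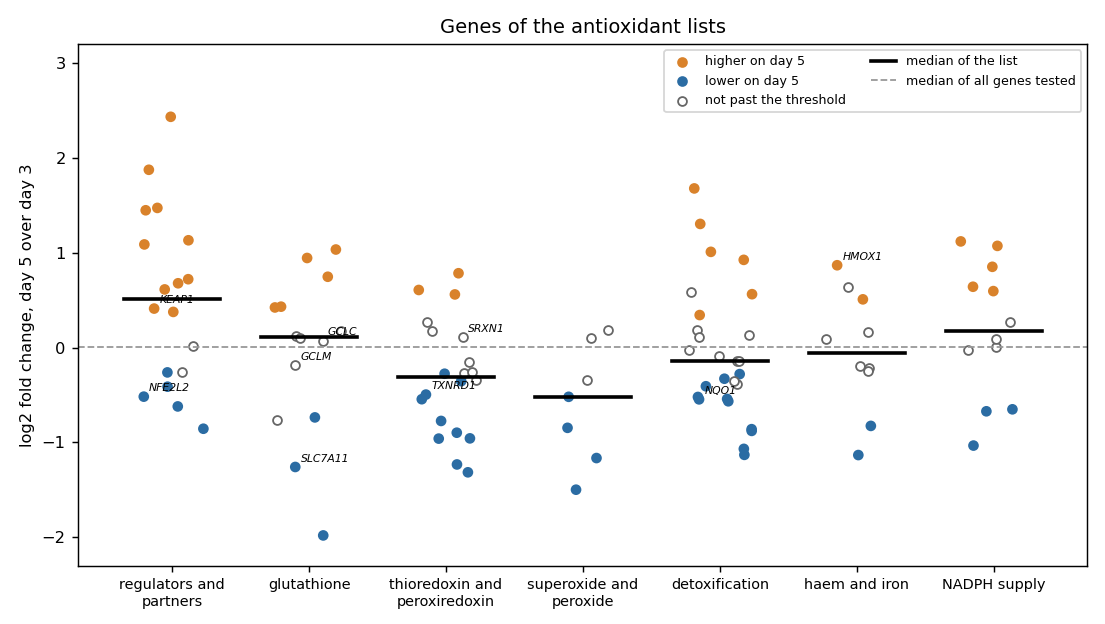
Log2 fold change, day 5 over day 3 (vertical axis), of every gene tested in 7 lists, with orange points for genes past the threshold as higher, blue for lower and open points for the others. Black bars mark list medians, from 0.51 for regulators and partners to -0.52 for superoxide and peroxide removal, and the dashed line marks the median of all genes tested, 0.01.

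Of 27 genes for quinone and xenobiotic detoxification, which include NQO1, 11 were lower, 6 were higher and 10 did not pass, with a median log2 fold change of -0.14, or -0.29 after the GC and length correction (13 lower, 5 higher). The ABC exporters of the ABCC family divided: ABCC3 rose from 586, 576 and 573 to 1887, 1864 and 1805 normalized reads (log2 fold change 1.68, adjusted p = 0.000122, limma) and ABCC1 rose by 1.30 (adjusted p = 0.000199, limma). ABCC2 fell by 1.13 (adjusted p = 0.000493, limma). The glutathione transferase GSTO1 fell by 1.07 (adjusted p = 0.000565, limma) and PIR, a redox-sensitive nuclear protein, fell by 0.88 (adjusted p = 0.000850, limma). AKR1C1, an aldo-keto reductase, rose from 77.0 to 157 in the mean (log2 fold change 1.01, adjusted p = 0.00171, limma), but it has near-identical relatives to which its reads could also map.

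The haem and iron genes moved both ways. Of 10 tested, 2 were higher (HMOX1 and the haem transporter SLC48A1), 2 were lower and 6 did not pass, with a median of -0.05. With GC and length corrected, 2 were higher and 4 were lower, and the median was -0.22. BLVRA, which turns the biliverdin made by HMOX1 into bilirubin, fell from 1028, 1042 and 1175 to 630, 572 and 625 normalized reads (log2 fold change -0.83, adjusted p = 0.000703, limma). The ferritin chains FTL (log2 fold change -0.25, adjusted p = 0.217) and FTH1 (0.16, adjusted p = 0.320) did not pass in limma. FTL passed as lower with edgeR (adjusted p = 0.0281), with DESeq2 (adjusted p = 0.0425) and with internal control genes (-0.61), and FTH1 passed as higher after the GC and length correction (0.34, limma adjusted p = 0.0426) and without replicate 3 of day 3 (0.29). SLC48A1 no longer passed after the GC and length correction (0.064, adjusted p = 0.539, limma) or with internal control genes (0.14, adjusted p = 0.214, limma).

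The NADPH that NQO1, TXNRD1 and GSR consume comes from several pathways. In the list made for NADPH supply, genes moved both ways, with 5 of 12 higher, 3 lower and a median of 0.18. With GC and length corrected, 3 were higher and 3 were lower, and the median was 0.07. The list holds mitochondrial enzymes and was not split by compartment or by the cofactor each enzyme uses. TKT, of the pentose phosphate pathway, rose from 6192, 7670 and 10022 to 14418, 13702 and 14144 normalized reads (log2 fold change 0.85, adjusted p = 0.00795, limma), and no longer passed after the GC and length correction (0.20, adjusted p = 0.294, limma). The mitochondrial isocitrate dehydrogenase IDH2 rose by 1.12 (adjusted p = 0.00134, limma), while its cytosolic relative IDH1 fell by 0.67 (adjusted p = 0.000777, limma). MTHFD2, of mitochondrial folate metabolism, fell by 1.03 (adjusted p = 0.000341, limma), as did the malic enzyme ME2 by 0.65 (adjusted p = 0.00183, limma).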

How the data were processed

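Whole cell RNA of HCT116 cells was used to make rRNA-depleted, strand-specific libraries with UMI adapters. Per the methods and the submitters' processing notes, reads were demultiplexed (bcl2fastq), checked (FastQC 0.11.8, MultiQC 1.7), trimmed and mapped with strand to annotated hg38 genes in CLC Genomics Workbench. The deposited table holds, for each of 6 libraries, a normalized signal per gene that the authors made; the methods name TMM, but the signal values were whole multiples of 1 read divided by 1 factor per library, so reads were recovered for 100% of values (tolerance 0.01 reads). The table also lists the authors' fold changes and p-values, which were not used. Small RNA values were not used here, and day 7 whole transcriptome values were not analysed here.

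The sample titles gave the day and the replicate. limma (3.58.1, R 4.3.3) was fitted to log2(signal + 1) of 20129 genes that reached 10 normalized reads in 3 or more libraries, with Benjamini-Hochberg adjustment over all of them and a threshold of 0.05. Fold changes are on that scale and understate changes of low genes. Alternatives were library totals and internal control genes as scaling, no filter, a pseudocount of 0.1, a replicate block, each library left out, and edgeR (4.0.16) and DESeq2 (1.42.0) on recovered reads. A scaling to HPRT1 and ZMYM4 and a correction for GC content and length (loess, span 0.5; 19288 genes) were added after seeing the data. For ratios, exact permutation tests (two-sided) were used. The scripts were tested on simulated data. Positions, exon lengths and GC content came from GENCODE 44 (GRCh38), and promoter windows from RefSeq.

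The 9 genes and the lists were chosen with earlier results of these data known. Genes named were the 9, fixed partners, controls and genes beside the 9 (such as SLC3A2, TXN and FTL), overlapping genes, the 3 most like NFE2L2, NQO1 and HMOX1, and in each list up to 3 rises and 3 falls with no overlap and a mean of at least 100. A result for a gene that the rule names is not reported here. Markers were named as checks of cell type. Depth was 27470978 to 56689369 reads per library.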

Additional observations from a re-analysis of the deposited data

How the results depend on the processing

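NFE2L2, NQO1, TXNRD1, SLC7A11 and HMOX1 kept their direction and stayed past the threshold in all 15 alternatives. Leaving out 1 library at a time gave log2 fold changes of -0.57 to -0.42 for NFE2L2, -0.60 to -0.47 for NQO1, -0.55 to -0.41 for TXNRD1, -1.31 to -1.20 for SLC7A11 and 0.72 to 1.01 for HMOX1. KEAP1 was no longer past the threshold with internal control genes as scaling (0.046, limma adjusted p = 0.722), with no filter (0.41, adjusted p = 0.140), under the replicate block (0.41, adjusted p = 0.0696) and in 5 of the 6 fits that left out a library (all but that without replicate 3 of day 3), which gave 0.30 to 0.53 in all. After the GC and length correction KEAP1 was at -0.12. With internal control genes, GCLC was at -0.29 (adjusted p = 0.0282, limma), GCLM at -0.55 (adjusted p = 0.00385, limma) and SRXN1 at -0.25, and CUL3 was at -0.35, SLC3A2 at -0.24, GSR at -0.19 and FTH1 at -0.20; that scaling moved the median of all genes to -0.36. Leaving out a library gave -0.025 to 0.12 for GCLC, below 0 without replicate 3 of day 5, -0.13 to 0.44 for SRXN1, below 0 without replicate 1 of either day, and -0.011 to 0.035 for CUL3, below 0 without replicate 1 of day 3 (-0.0045) and without replicate 3 of day 5. After the GC and length correction TXNRD2 was at -0.094, SELENOO at -0.16, FADS2 at -0.10, SLC3A2 at -0.12 and HPRT1 at 0.41, and HPRT1 was at 0.0018 when scaled to itself and ZMYM4. The number called in the detoxification list was 11 with no filter (17 in the reported setting). In the haem and iron list it was 8 with edgeR on reads (4 in the reported setting). In the order per kilobase, 6 genes changed place with the longest transcript. The cause of these changes was not tested, except that scaling to other genes shifts every gene alike. Of the 56 other genes named, 40 kept their call and direction in every alternative.

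Of all genes tested, 11450 passed, and 9235 to 12280 did so under the alternatives. Over all genes tested together, same-numbered replicates did not vary together (correlations of their deviations -0.011, 0.034 and 0.023, not every library correlating best with its own number). The main fit therefore did not pair them. Correlations pooled over genes cannot show whether some genes shared an effect of the replicate number. With the replicate number as a block 10533 genes passed, and of the genes named only KEAP1 (0.41) and FADS2 (0.55, limma adjusted p = 0.0693) changed their call. The fewest reads were those of SRXN1 (48 to 84 a library) and HMOX1 (243 to 606); for SRXN1 the spread between libraries exceeded counting error. Only 3 libraries per day were compared, so exact tests of single values cannot go below p = 0.1 and ratios could not pass the threshold.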

Other observations

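Selenoproteins outside the lists above share with TXNRD1 the amino acid selenocysteine. Of 15 tested, 9 were lower, 2 were higher and 4 did not pass in limma, with a median log2 fold change of -0.56. The share that passed was 73.3%, beside 56.9% of all genes tested. The 3 named falls are of proteins of the endoplasmic reticulum. SELENOT had 4160, 4393 and 4467 normalized reads on day 3 and 1962, 1864 and 1912 on day 5 (log2 fold change -1.18, adjusted p = 0.000194, limma), SELENOK was at -1.11 (adjusted p = 0.000336, limma) and SELENOF at -0.93 (adjusted p = 0.000303, limma). SELENON, of the same compartment, rose 3.00-fold, from 1266, 1513 and 1525 to 4280, 4179 and 4416 (log2 fold change 1.59, adjusted p = 0.000200, limma). SELENOO, of mitochondria, rose by 0.54 (adjusted p = 0.00223, limma), a rise that was not kept after the GC and length correction. With internal control genes as scaling SELENOO did not pass either (0.18, adjusted p = 0.124, limma). Metallothioneins bind zinc and copper. Of 4 tested, MT1E alone passed and fell from 9597, 9169 and 13382 to 5978, 6190 and 6501 (log2 fold change -0.76, adjusted p = 0.00762, limma), and it has near-identical relatives.

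SLC7A11 is also known for protecting cells from ferroptosis, death by lipid peroxidation. Of 12 other genes of that process, 5 were higher, 2 were lower and 5 did not pass, with a median of 0.25. The share that passed, 58.3%, was close to the 56.9% of all genes tested. After the GC and length correction 1 was higher and 3 were lower, with a median of -0.12. The transferrin receptor TFRC fell from 31718, 32942 and 35825 to 19150, 19668 and 13190 normalized reads (log2 fold change -0.97, adjusted p = 0.00405, limma), with the third day 5 library well below the others of its day. GCH1, which makes the antioxidant tetrahydrobiopterin, fell by 0.42 (adjusted p = 0.00459, limma). POR, a flavoprotein that passes electrons to P450 enzymes, rose from 828, 916 and 1101 to 2183, 1946 and 1764 (log2 fold change 1.05, adjusted p = 0.00131, limma), and the lipid desaturase FADS2 rose by 0.55 (adjusted p = 0.0265, limma), a call lost after the same correction, with internal control genes (0.19), with no filter, under the replicate block and in 4 of the 6 fits that left out a library (all but those without replicate 3 of either day).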
